A study of Mus musculus with 18 samples.

Results

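The genes described here are 32 genes of DNA synthesis and S phase, the stage of the cell cycle in which the genome is copied. They were taken by symbol from a table of 18264 mouse genes, and all 32 were found. The table gives FPKM, a fragment count divided by gene length and library total, in 18 RNA sequencing libraries of neonatal ventricular cardiac fibroblasts (NVCFs), which are connective tissue cells of the newborn mouse heart ventricle grown in culture. The 18 libraries fell into 6 groups of 3. In the knockdown arm, si-Foxm1+Ang-II cells received both the Foxm1 siRNA and angiotensin II, Ang-II cells received angiotensin II, si-Foxm1 cells received a small interfering RNA against Foxm1, and si-NC cells were the negative control. In the overexpression arm, OE-Foxm1 cells overexpressed Foxm1 and OE-NC cells were its negative control. The labels give neither the dose nor the duration of angiotensin II, a peptide hormone that drives fibroblast activation, nor the overexpression vector, and do not say if a control siRNA was added to Ang-II cells. They also do not say whether the 3 libraries of a group came from separate cultures, so the p-values measure the spread between these libraries, which may be technical.

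Before a cell divides, ribonucleotide reductase and thymidylate synthase supply deoxynucleotides, the CMG helicase (Cdc45, MCM and GINS) opens the double helix, primase lays RNA primers, and the polymerases copy both strands behind the sliding clamp PCNA. Most of these genes are transcribed in a wave at the G1 to S transition by activator E2F proteins, and E2F7 and E2F8 are repressors that close the wave. FOXM1 is a forkhead transcription factor known chiefly for driving genes of the G2 phase and mitosis. In the heart, fibroblasts keep the ability to divide after birth, and their expansion is part of scarring.

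The promoters of these genes were searched for the letters of known cell cycle motifs, E2F sites first. RefSeq promoter sequences (GRCm38.p6, 250 bases before to 50 bases after the start site) were available for 27 of the 32 genes, and Gins1, Gins2, Pole, Prim2 and Rfc2 had no entry. E2F sites were searched as TTTCGCGC, TTTGGCGC, TTTCCCGC or TTTGCCGC on either strand. A gene counted as matched if any of its promoters held a match. That was so for 8 of the 27 genes (29.6%), against 3.94% of the 14276 genes in the table with an entry. Counted by single promoter, the share was 2.26% of all 32851 promoters in that set. The windows below are the 30 bases around each match, on the strand of the gene. They are shown because their letters match a kind of site that E2F proteins are known to bind. Capitals mark the match.
E2f2: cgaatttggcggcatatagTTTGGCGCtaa
E2f7: cccgcgtccccGCGGGAAAcgctcccgcgt
Lig1: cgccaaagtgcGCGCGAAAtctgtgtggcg
Pola1: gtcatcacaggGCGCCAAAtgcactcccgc
Pold1: cacggcggcgtatcttgtgGCGGGAAAagc
Pole2: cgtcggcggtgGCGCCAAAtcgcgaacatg
Rfc3: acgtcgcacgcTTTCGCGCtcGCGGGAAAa
Uhrf1: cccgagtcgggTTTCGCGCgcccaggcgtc

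The windows lie at E2f2 at chr4:136172294-136172323 (+ strand), E2f7 at chr10:110745230-110745259 (+ strand), Lig1 at chr7:13278841-13278870 (+ strand), Pola1 at chrX:93632275-93632304 (- strand), Pold1 at chr7:44548766-44548795 (- strand), Pole2 at chr12:69228162-69228191 (- strand), Rfc3 at chr5:151651200-151651229 (- strand) and Uhrf1 at chr17:56304117-56304146 (+ strand). The Rfc3 window holds 2 matches side by side, a TTTCGCGC and the reverse complement of TTTCCCGC. Of the other motifs, a CCAAT box (CCAAT) was found in 15 of the 27 genes (55.6%), against 37.41% of all single promoters and 42.27% of the genes in the table with an entry. The cell cycle homology region (TTTGAA or TTCGAA), an element of late cell cycle promoters, was found in 5 (18.5%), against 19.23% and 17.59%. The forkhead site TGTTTAC was found only in the Cdc45 promoter (3.7%), against 3.65% and 3.22%. A match is a description of the letters and was not read as a bound site.

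Each library held between 14988993 and 19343343 counted fragments, as recovered from the steps of the FPKM values, with between 15422 and 15878 genes above 0. Foxm1 itself had 6.06, 5.13 and 6.71 FPKM in si-Foxm1 libraries, against 10.4, 9.64 and 10.3 FPKM in si-NC libraries, and 3.55, 3.36 and 3.03 FPKM in si-Foxm1+Ang-II libraries, against 4.23, 4.03 and 5.65 FPKM in Ang-II libraries. It had 399, 480 and 487 FPKM in OE-Foxm1 libraries, against 15.7, 17.1 and 17.1 FPKM in OE-NC libraries. The libraries of each pair did not overlap, and each exact permutation test (two-sided, 3 against 3) gave p = 0.1, the smallest that this design allows. Some libraries stood apart from their group across the S phase genes. Ang-II replicate 3 was the highest of its group for 29 of the 32, si-Foxm1 replicate 3 for 26 and OE-Foxm1 replicate 3 for 26, and Ang-II replicate 2 was the lowest for 26. Counts without these libraries are given beside the results. Ang-II replicate 3 also stood apart beyond the S phase genes. Over 12321 to 12342 genes, the mean chi-square, a measure of the difference in counts between 2 libraries, was 5.09 and 5.52 for replicate 3 against replicates 1 and 2. It was 1.77 between Ang-II replicates 1 and 2, and at most 2.88 within any other group. The 13 fibroblast markers summed to between 6002 and 7856 FPKM in every library. The 15 cardiomyocyte markers, which a fibroblast should lack, were also high, with sums between 5487 and 14310 FPKM, and none of the 15 was at 0 in any group.

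All 32 genes were above 0 in every library. Pcna, the sliding clamp, was the most abundant per length, with 76.8 ± 2.78 FPKM in si-NC cells (mean ± SD, n = 3), and E2f2, an activator E2F, the least abundant, with 0.571 ± 0.0770 FPKM. E2f2 had between 23 and 87 fragments in a library and fell under the minimum mean of 1 FPKM, so 31 of the 32 genes were tested in the main fits. Mean levels were ordered alike in most genes. In 27 of the 32 the order was si-Foxm1, si-NC, si-Foxm1+Ang-II and Ang-II, high to low. Tyms, Dut, Rfc2 and Fen1 had si-Foxm1+Ang-II above si-NC, and Rrm2 had si-NC above si-Foxm1. Ang-II was the lowest of the 4 knockdown groups in all 32. These orders were not counted over all genes. E2f2 followed the common order, with 0.496, 0.431 and 0.454 FPKM in si-Foxm1+Ang-II libraries, 0.254, 0.252 and 0.352 FPKM in Ang-II libraries, 0.645, 0.685 and 0.844 FPKM in si-Foxm1 libraries and 0.628, 0.484 and 0.602 FPKM in si-NC libraries. The difference between si-Foxm1+Ang-II and si-NC was not tested, and the libraries of neighbouring groups overlapped for several genes, E2f2 included.

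**Figure D1:**
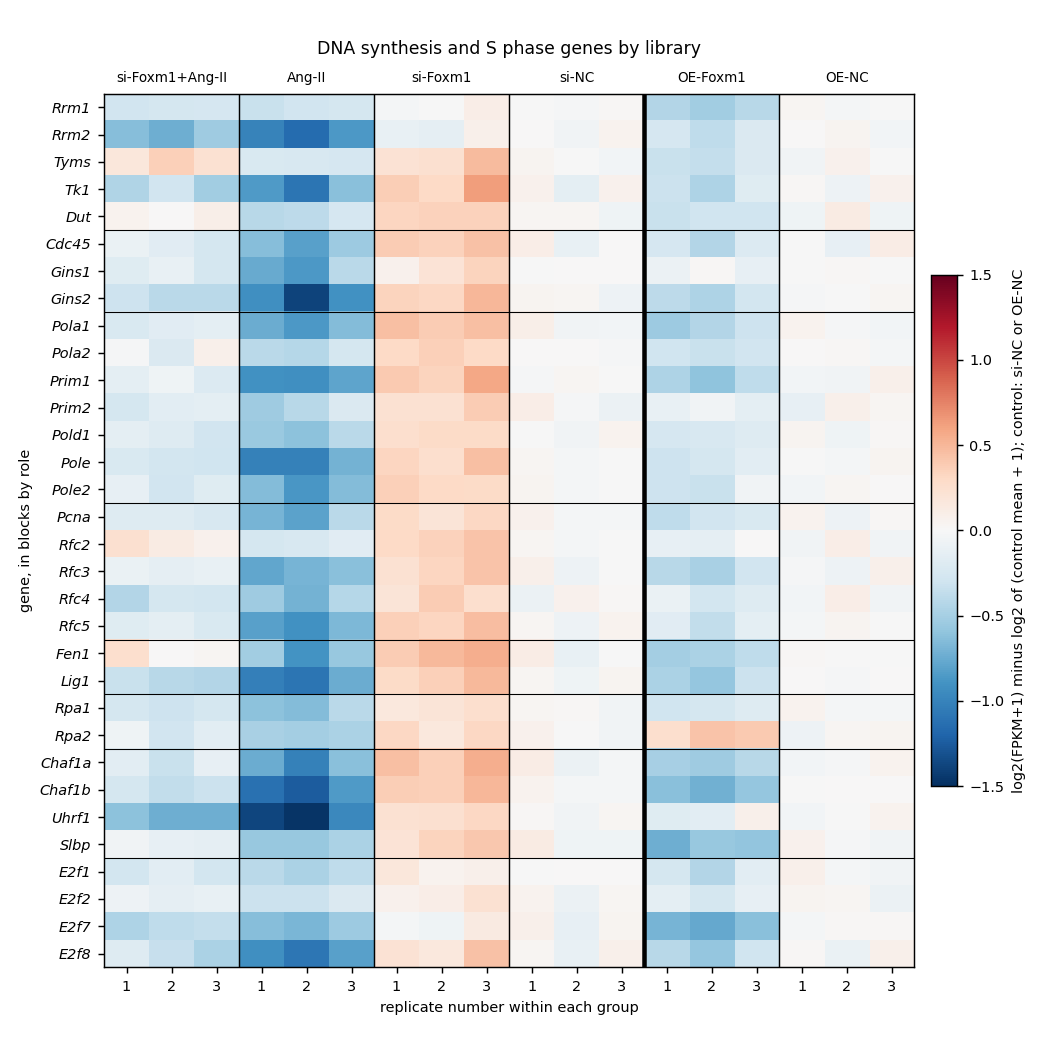
Expression of the 32 S phase genes in each of the 18 libraries, as log2(FPKM + 1) minus the log2 of the control mean plus 1, with the genes in rows by role and the libraries in columns by group. In every row the mean of the 3 Ang-II columns is the lowest of the knockdown arm, and the OE-Foxm1 columns lie below OE-NC for most genes but not for Rpa2.

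With the Foxm1 siRNA alone, most S phase genes were higher. Of the 31 tested, 26 rose and 0 fell in si-Foxm1 against si-NC (limma on log2(FPKM + 1), adjusted p under 0.05 over 11180 genes). Fen1, which trims the flaps of Okazaki fragments, rose most, by 0.48 ± 0.09 (SE, adjusted p = 5.72e-04) on the log2 scale used throughout, followed by Chaf1a and Prim1. Differences between genes within a comparison were not tested. The comparison moved much of the transcriptome the same way, since 48.5% of all genes tested were called higher and 17.2% lower. The median log2 difference was 0.32 over the 31 genes and 0.11 over all genes. The calls depended in part on scaling. Median-of-ratios scaling lowered the median of all genes by 0.11, and then called 19 S phase genes higher and 2 lower, against 26.4% and 29.3% of all genes. Quantile normalization called 22 higher and 0 lower, against 30.7% and 26.6%. In bulk RNA, fewer or more cells in S phase and less or more RNA per cell cannot be told apart.

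The nucleotide supply genes divided. Rrm1 and Rrm2, the large and small subunits of ribonucleotide reductase, did not pass the test. Rrm1 had 43.0, 43.6 and 47.0 FPKM in si-Foxm1 libraries, against 43.7, 43.2 and 44.3 FPKM in si-NC libraries. Rrm2 had 21.6, 21.3 and 24.8 FPKM in si-Foxm1 libraries, against 23.5, 22.6 and 24.4 FPKM in si-NC libraries. Both pairs of groups overlapped, with log2 differences of 0.02 ± 0.03 (SE, adjusted p = 0.537) for Rrm1 and -0.06 ± 0.07 (SE, adjusted p = 0.484) for Rrm2. Median-of-ratios scaling gave these as -0.10 and -0.19, both called lower. Tk1, the thymidine salvage kinase, had 17.1, 16.2 and 20.6 FPKM in si-Foxm1 libraries, against 13.7, 11.7 and 13.7 FPKM in si-NC libraries. No si-Foxm1 value came down to the si-NC range, and Tk1 rose by 0.43 ± 0.11. Dut, which removes dUTP, rose by 0.34 ± 0.05, and Tyms, thymidylate synthase, by 0.31 ± 0.07.

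All 7 genes of the polymerases and primase rose. Prim1, the catalytic primase subunit, had 9.27, 8.87 and 10.7 FPKM in si-Foxm1 libraries, against 6.71, 6.93 and 6.76 FPKM in si-NC libraries. Its groups were well apart, and it rose by 0.44 ± 0.06 (SE, adjusted p = 3.20e-05). Pola1, the catalytic subunit of the primer-extending polymerase alpha, had 6.40, 6.03 and 6.40 FPKM in si-Foxm1 libraries, against 4.76, 4.20 and 4.24 FPKM in si-NC libraries. That difference was 0.43 ± 0.06 (SE, adjusted p = 2.49e-05), also without overlap. Pole, the leading-strand polymerase, rose by 0.34 ± 0.07, Pold1, the lagging-strand polymerase, by 0.28 ± 0.06, and the accessory subunits Pola2 and Pole2 by 0.32 ± 0.07 and 0.32 ± 0.06. Prim2, the large primase subunit, had the joint smallest change of the 7, 0.28 ± 0.08. Among the helicase genes, Cdc45 rose by 0.39 ± 0.07 and Gins2 by 0.38 ± 0.10. Gins1 had 2.85, 3.24 and 3.63 FPKM in si-Foxm1 libraries, against 2.67, 2.69 and 2.70 FPKM in si-NC libraries, so that its groups did not overlap, but at 0.20 ± 0.10 (SE, adjusted p = 0.0909) it did not pass.

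Pcna and the clamp loader subunits that place it on DNA all rose. Pcna had 94.1, 88.2 and 95.4 FPKM in si-Foxm1 libraries, against 80.0, 75.2 and 75.1 FPKM in si-NC libraries. Those 6 values gave a difference of 0.27 ± 0.07 (SE, adjusted p = 0.00615) with no overlap. Rfc5 rose most of the loader, by 0.38 ± 0.06, followed by Rfc2 (0.35 ± 0.05), Rfc3 (0.32 ± 0.06) and Rfc4 (0.28 ± 0.07). Fen1 had 12.4, 13.4 and 14.0 FPKM in si-Foxm1 libraries, against 10.1, 8.47 and 9.20 FPKM in si-NC libraries, and its lowest si-Foxm1 library was above its highest si-NC library. Lig1, the ligase that seals Okazaki fragments, rose by 0.38 ± 0.08. The single-strand binding subunits rose less, Rpa1 by 0.20 ± 0.05 and Rpa2 by 0.26 ± 0.06. Of the chromatin genes, Chaf1a and Chaf1b, subunits of the histone chaperone CAF-1, rose by 0.45 ± 0.09 and 0.41 ± 0.08. Slbp, which binds histone mRNA, rose by 0.32 ± 0.06, and Uhrf1, which binds the hemimethylated DNA left by replication, by 0.26 ± 0.09.

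The E2F genes had the lowest median of the role groups, 0.10 over the 3 tested. E2f7 had 3.16, 3.05 and 3.66 FPKM in si-Foxm1 libraries, against 3.47, 2.90 and 3.38 FPKM in si-NC libraries, with overlapping groups and a difference of 0.01 ± 0.07 (SE, adjusted p = 0.880). E2f1, an activator, differed by 0.10 ± 0.05 (SE, adjusted p = 0.0710). E2f8 was the one E2F gene called, at 0.27 ± 0.09 (SE, adjusted p = 0.0172). Prim2, Pcna, Rfc4, Rpa1, Rpa2, Uhrf1 and E2f8 lost their call under median-of-ratios scaling, where their log2 differences lay between 0.07 and 0.18, and Prim2, Rfc4, Uhrf1 and E2f8 also under quantile normalization. Without si-Foxm1 replicate 3, 24 genes were called, and E2f8 (0.19) and Uhrf1 (0.24) were lost. Uhrf1 was also lost with no minimum level (0.26). The same pair was lost without si-NC replicate 2 (0.22 and 0.23), and Gins1 was gained without si-Foxm1 replicate 1 (0.27) and with only the compared groups in the fit (0.20). Markers of other cells moved with the siRNA. Of the 15 cardiomyocyte markers, 13 fell and 1 rose, and their sum lay between 7182 and 7634 FPKM in si-Foxm1 libraries, against 13288 to 14310 FPKM in si-NC libraries. All 9 tested macrophage markers fell, with sums over the 11 listed of 133 to 167 FPKM in si-Foxm1 libraries, against 261 to 269 FPKM in si-NC libraries, and none was at 0 in any group. Their part in the result was not tested.

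With angiotensin II, every S phase gene tested was lower. All 31 fell and 0 rose in Ang-II against si-NC, where 29.2% of all genes were called lower and 15.2% higher. This comparison shares the si-NC libraries with the previous one. The median log2 difference was -0.66 over the 31 genes and -0.03 over all genes. Uhrf1 fell most, by 1.27 ± 0.09 on the log2 scale (SE, adjusted p = 1.67e-07), and Rfc2 least, by 0.23 ± 0.05 (adjusted p = 0.00163). For all 31 genes, the highest Ang-II library was below the lowest si-NC library. The share of all genes whose libraries lay apart in this way was not counted. Without Ang-II replicate 3, or without replicate 2, the same comparison again called 31 lower. Under median-of-ratios scaling 31 were lower, where 21.7% of all genes were lower and 22.2% higher, and under quantile normalization 20.5% of all genes were lower and Tyms alone of the 31 lost its call (-0.16).

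Uhrf1 had 5.03, 4.66 and 6.99 FPKM in Ang-II libraries, against 14.9, 14.1 and 15.0 FPKM in si-NC libraries. The third Ang-II library was the highest of its group, yet lay under all si-NC values. Chaf1b had 3.65, 3.24 and 4.61 FPKM in Ang-II libraries, against 9.44, 8.94 and 8.93 FPKM in si-NC libraries, and Chaf1a had 3.89, 3.05 and 4.31 FPKM in Ang-II libraries, against 7.84, 6.69 and 6.98 FPKM in si-NC libraries. The differences were -1.07 ± 0.08 for Chaf1b and -0.79 ± 0.09 for Chaf1a, and Slbp fell less, at -0.53 ± 0.06. In nucleotide supply, the subunits of ribonucleotide reductase parted. Rrm2 had 11.2, 10.0 and 12.5 FPKM in Ang-II libraries, with the si-NC values as above, a difference of -1.01 ± 0.07 (SE, adjusted p = 1.66e-07). Rrm1 had 34.6, 35.6 and 36.2 FPKM in Ang-II libraries, a difference of -0.30 ± 0.03 (SE, adjusted p = 9.09e-06). Tk1 fell too, at -0.86 ± 0.11, while Dut (-0.35 ± 0.05) and Tyms (-0.24 ± 0.07) fell less. Tyms had 4.04, 4.00 and 3.97 FPKM in Ang-II libraries, against 5.08, 4.88 and 4.74 FPKM in si-NC libraries.

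Among the helicase genes Gins2 had 6.38, 4.33 and 6.47 FPKM in Ang-II libraries, against 13.4, 13.3 and 12.3 FPKM in si-NC libraries. Its Ang-II libraries were all under every si-NC library, and it fell by 1.07 ± 0.10. Gins1 and Cdc45 differed by -0.67 ± 0.10 and -0.66 ± 0.07. The catalytic subunits of the primase and of polymerases alpha and epsilon had the larger estimated fall in each pair. Pole had 1.56, 1.55 and 2.15 FPKM in Ang-II libraries, against 4.28, 4.07 and 4.12 FPKM in si-NC libraries. Pole differed by -0.91 ± 0.07 and its accessory subunit Pole2 by -0.72 ± 0.06, whereas Prim1 differed by -0.87 ± 0.06 and Prim2 by -0.38 ± 0.08, and Pola1 by -0.75 ± 0.06 and Pola2 by -0.37 ± 0.07. Pold1 was at -0.53 ± 0.06. Prim2 had 1.91, 2.16 and 2.64 FPKM in Ang-II libraries, against 3.51, 3.17 and 2.97 FPKM in si-NC libraries. The gap between its groups was narrow beside that of Prim1, which had 3.14, 3.11 and 3.52 FPKM in Ang-II libraries.

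Pcna had 47.1, 43.4 and 57.8 FPKM in Ang-II libraries, all under the si-NC values given above, and differed by -0.64 ± 0.07 (SE, adjusted p = 1.11e-05). In the clamp loader, Rfc5 (-0.80 ± 0.06) and Rfc3 (-0.70 ± 0.06) had larger estimated falls than Rfc2, which had 14.2, 14.4 and 15.2 FPKM in Ang-II libraries, against 17.6, 16.9 and 17.2 FPKM in si-NC libraries. Rfc4 lay between them at -0.55 ± 0.07. Lig1 had 4.07, 3.84 and 5.19 FPKM in Ang-II libraries, against 9.54, 8.85 and 9.63 FPKM in si-NC libraries, and no values were shared. Lig1 differed by -0.95 ± 0.08 and Fen1 by -0.66 ± 0.09, and the single-strand binding subunits by -0.55 ± 0.05 (Rpa1) and -0.49 ± 0.06 (Rpa2). Of the E2F genes, the repressor E2f8 had 1.43, 1.16 and 1.61 FPKM in Ang-II libraries, against 3.69, 3.24 and 3.83 FPKM in si-NC libraries. It fell the most of the 3 tested, at -0.94 ± 0.09, with E2f7 at -0.62 ± 0.07 and the activator E2f1 at -0.42 ± 0.05. Foxm1 fell too, at -0.99 ± 0.10. Of the cardiomyocyte markers 14 of 15 fell and 1 rose, with sums of 9883 to 10824 FPKM in Ang-II libraries, against 13288 to 14310 FPKM in si-NC libraries. Of the 9 tested macrophage markers 4 rose and 1 fell, with sums over the 11 listed of 318 to 347 FPKM in Ang-II libraries, against 261 to 269 FPKM in si-NC libraries. Fibroblast markers numbered 3 higher and 8 lower of 13, with sums of 7513 to 7856 FPKM in Ang-II libraries, against 6716 to 6987 FPKM in si-NC libraries. Their part in the result was not tested.

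Adding the Foxm1 siRNA to angiotensin II went with higher levels of nearly all S phase genes. In si-Foxm1+Ang-II against Ang-II, 30 of the 31 rose and 0 fell, where 44.0% of all genes were called higher and 17.4% lower. Rrm1 alone did not pass, at 0.03 ± 0.03 (SE, adjusted p = 0.440). The median log2 difference was 0.49 over the 31 genes and 0.09 over all genes. On this log2 scale, which understates changes of low genes such as Pole and E2f8, Fen1, Chaf1b and Prim1 rose most. They rose by 0.75 ± 0.09 (SE, adjusted p = 1.25e-05), 0.75 ± 0.08 (SE, adjusted p = 2.88e-06) and 0.74 ± 0.06 (SE, adjusted p = 2.97e-07). Under median-of-ratios scaling 26 of the 31 were higher and 0 lower, where 27.6% of all genes were higher and 27.9% lower, and Prim2, Rfc4, E2f1 and E2f7 lost their calls. The same 4 were lost under quantile normalization, where 29.8% were higher and 25.8% lower. Without Ang-II replicate 3, the count was again 30. Without Ang-II replicate 2 it was 27, and E2f7 (0.19), Prim2 (0.19) and Rfc4 (0.16) were lost. The Ang-II libraries enter this comparison and the previous one, so the values of the pair of comparisons share them.

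Fen1 had 11.2, 9.33 and 9.43 FPKM in si-Foxm1+Ang-II libraries, against 6.16, 4.52 and 5.92 FPKM in Ang-II libraries. Chaf1b had 7.44, 6.80 and 7.07 FPKM in si-Foxm1+Ang-II libraries, against 3.65, 3.24 and 4.61 FPKM in Ang-II libraries. Prim1 had 6.07, 6.47 and 5.78 FPKM in si-Foxm1+Ang-II libraries, against 3.14, 3.11 and 3.52 FPKM in Ang-II libraries. For all of these the lowest si-Foxm1+Ang-II library was well above the highest Ang-II library. The large subunit of primase moved less than Prim1. Prim2 had 2.51, 2.79 and 2.81 FPKM in si-Foxm1+Ang-II libraries, against 1.91, 2.16 and 2.64 FPKM in Ang-II libraries, groups that overlapped, and was called at 0.20 ± 0.08 (SE, adjusted p = 0.0408). Rfc4 overlapped too, with 5.65, 6.47 and 6.43 FPKM in si-Foxm1+Ang-II libraries, against 5.23, 4.51 and 5.66 FPKM in Ang-II libraries, and was called at 0.23 ± 0.07 (SE, adjusted p = 0.0139). Neither call was stable. Prim2 was not called without Ang-II replicate 1 (0.13) or 2 (0.19) or without si-Foxm1+Ang-II replicate 2 (0.18) or 3 (0.18), and was lost at 0.20 with no minimum level or with only the compared groups in the fit. Rfc4 was not called without Ang-II replicate 2 (0.16) or without si-Foxm1+Ang-II replicate 2 (0.20) or 3 (0.21), and E2f7 lost its call without Ang-II replicate 2 (0.19).

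In nucleotide supply, Rrm1 had 35.8, 36.4 and 36.5 FPKM in si-Foxm1+Ang-II libraries, against 34.6, 35.6 and 36.2 FPKM in Ang-II libraries, and the groups overlapped. Rrm2 had 14.8, 13.7 and 15.9 FPKM in si-Foxm1+Ang-II libraries, against 11.2, 10.0 and 12.5 FPKM in Ang-II libraries, with no overlap, and rose by 0.37 ± 0.07 (SE, adjusted p = 6.20e-04). Tyms had 5.62, 6.56 and 5.89 FPKM in si-Foxm1+Ang-II libraries, all above the Ang-II and the si-NC values given above, and rose by 0.49 ± 0.07. Tk1 and Dut rose by 0.44 ± 0.11 and 0.40 ± 0.05. Each helicase gene rose, Gins2 by 0.70 ± 0.10 and Cdc45 and Gins1 both by 0.49. Gins1 had 2.26, 2.42 and 2.07 FPKM in si-Foxm1+Ang-II libraries, against 1.19, 1.03 and 1.78 FPKM in Ang-II libraries. The Ang-II group spread widely, and its highest library was still under the lowest si-Foxm1+Ang-II library. Of the polymerases, Pole had 3.39, 3.27 and 3.19 FPKM in si-Foxm1+Ang-II libraries, clear of its Ang-II values, and rose by 0.64 ± 0.07. Pola1 rose by 0.57 ± 0.06, Pole2 by 0.53 ± 0.06, Pold1 by 0.32 ± 0.06 and Pola2 by 0.31 ± 0.07.

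Pcna had 66.8, 66.9 and 64.8 FPKM in si-Foxm1+Ang-II libraries, above all Ang-II values and below all si-NC values, and rose by 0.42 ± 0.07 (SE, adjusted p = 2.42e-04) against Ang-II. In the loader, Rfc5 rose by 0.62 ± 0.06, Rfc3 by 0.58 ± 0.06 and Rfc2 by 0.37 ± 0.05. Lig1 rose by 0.56 ± 0.08, and Rpa1 and Rpa2 by 0.28 ± 0.05 and 0.32 ± 0.06. Uhrf1 had 9.19, 8.41 and 8.40 FPKM in si-Foxm1+Ang-II libraries, between its Ang-II and si-NC values, and rose by 0.58 ± 0.09. Chaf1a rose by the same amount, 0.58, and Slbp by 0.43 ± 0.06. E2f8 averaged 2.64 ± 0.347 FPKM in si-Foxm1+Ang-II cells and 1.40 ± 0.225 FPKM in Ang-II cells (SD, n = 3 each), without overlap, and rose by 0.60 ± 0.09 (SE, adjusted p = 6.95e-05). E2f1 and E2f7 rose less, by 0.19 ± 0.05 and 0.22 ± 0.07. Foxm1 was lower in si-Foxm1+Ang-II than in Ang-II, at -0.38 ± 0.10. Of the 15 cardiomyocyte markers 12 fell and 2 rose, with sums of 5487 to 5660 FPKM in si-Foxm1+Ang-II libraries, against 9883 to 10824 FPKM in Ang-II libraries. All 9 tested macrophage markers fell, with sums over the 11 listed of 131 to 152 FPKM in si-Foxm1+Ang-II libraries, against 318 to 347 FPKM in Ang-II libraries. Their part in the result was not tested.

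**Figure D2:**
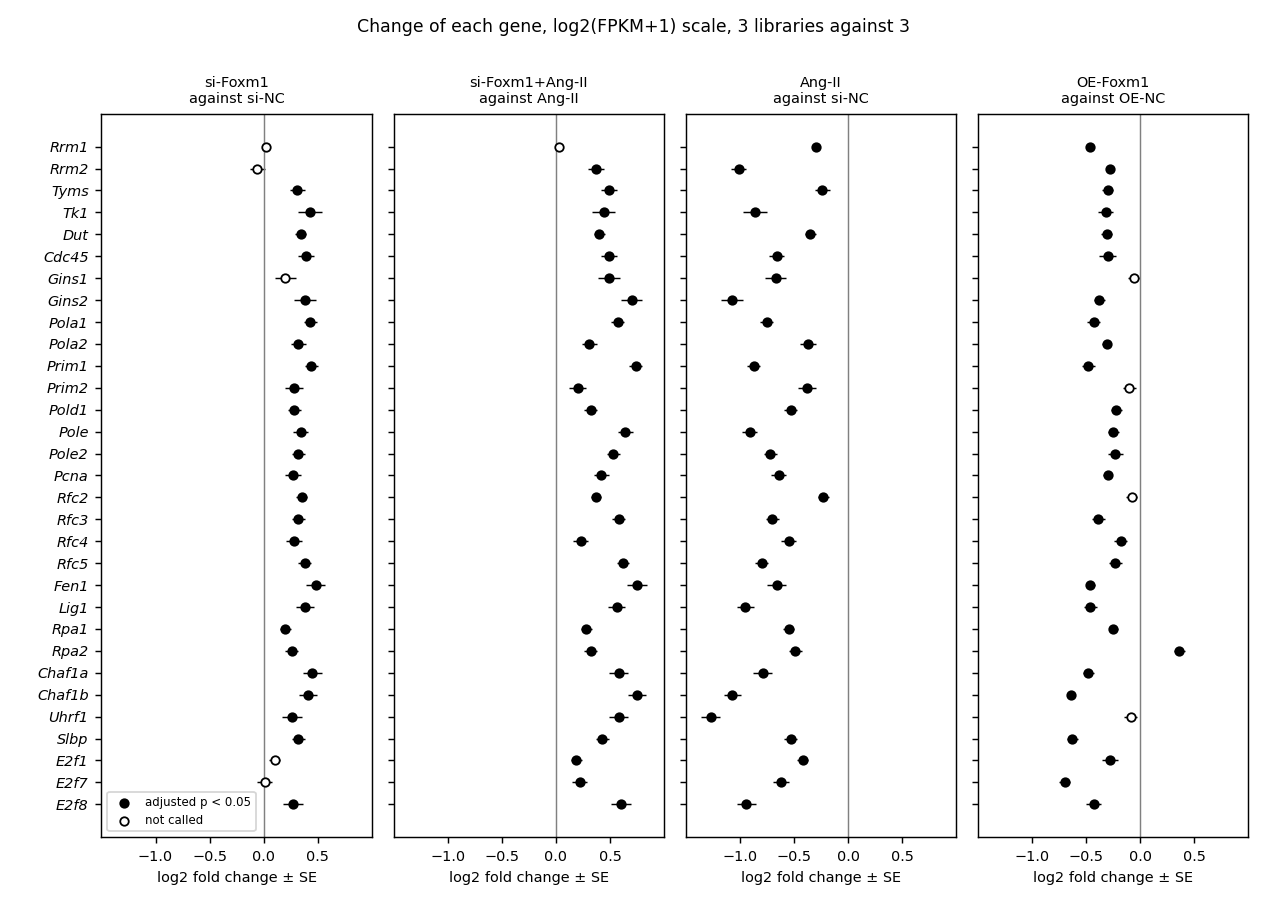
Log2 differences of the 31 tested S phase genes in 4 comparisons, by role. Points are limma estimates on log2(FPKM + 1), bars are 1 SE, and filled points are called at adjusted p under 0.05. Values lie above 0 for 26 called genes in si-Foxm1 against si-NC and 30 in si-Foxm1+Ang-II against Ang-II, and below 0 for all 31 in Ang-II against si-NC and for 26 called genes in OE-Foxm1 against OE-NC.

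The hormone also went with lower S phase genes among siRNA-treated cells, where 30 of the 31 genes fell and 0 rose in si-Foxm1+Ang-II against si-Foxm1. Of all genes, 34.6% were called lower and 12.9% higher. The median log2 difference was -0.49 over the 31 genes and -0.07 over all genes. The count was again 30 under median-of-ratios scaling, where 20.3% of all genes were lower and 22.1% higher, and under quantile normalization, where 20.8% were lower, and also without si-Foxm1 replicate 3. Of the 15 cardiomyocyte markers 12 fell and 0 rose, with sums of 5487 to 5660 FPKM in si-Foxm1+Ang-II libraries, against 7182 to 7634 FPKM in si-Foxm1 libraries. Endothelial markers numbered 0 higher and 9 lower of 10, with sums of 72.2 to 79.6 FPKM in si-Foxm1+Ang-II libraries, against 104 to 108 FPKM in si-Foxm1 libraries. Fibroblast markers numbered 3 higher and 9 lower of 13, with sums of 7114 to 7266 FPKM in si-Foxm1+Ang-II libraries, against 6002 to 6333 FPKM in si-Foxm1 libraries. Smooth muscle and pericyte markers numbered 4 higher and 2 lower of 7 tested, macrophage markers 2 and 2 of 9, and epicardial markers 0 and 2 of 6. Their part in the result was not tested. Uhrf1 again fell most, at -0.96 ± 0.09 (SE, adjusted p = 2.39e-06). It had 9.19, 8.41 and 8.40 FPKM in si-Foxm1+Ang-II libraries, against 17.4, 17.5 and 18.5 FPKM in si-Foxm1 libraries, far apart. Tyms was the exception, with 5.62, 6.56 and 5.89 FPKM in si-Foxm1+Ang-II libraries, against 5.83, 5.97 and 7.21 FPKM in si-Foxm1 libraries, overlapping groups and a difference of -0.06 ± 0.07 (SE, adjusted p = 0.481). Tk1 (-0.84 ± 0.11), Lig1 (-0.77 ± 0.08), Gins2 (-0.76 ± 0.10) and Chaf1b (-0.73 ± 0.08) followed Uhrf1, and Rfc2 had the smallest called fall, at -0.21 ± 0.05. Prim2, at -0.47 ± 0.08, had 2.51, 2.79 and 2.81 FPKM in si-Foxm1+Ang-II libraries, against 3.94, 3.93 and 4.51 FPKM in si-Foxm1 libraries, with no overlap. This comparison and that of Ang-II with si-NC use different libraries. The log2 differences had r = 0.88 across the 31 genes, which come from the same libraries and are not independent replicates.

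Whether the siRNA effect differed with and without angiotensin II was tested as an interaction. No S phase gene passed: limma called 0 of the 31 in either direction, where 0.403% of all genes were called higher and 0.519% lower. At an unadjusted p under 0.05 there were 10, all positive. Voom on the recovered counts called 2, where it called 229 of all genes in either direction. The estimate was positive, that is, the siRNA difference was larger with the hormone, for 28 of the 31. The median estimate was 0.16 over the 31 genes and -0.02 over all genes. Shares of all genes at the unadjusted threshold or with a positive estimate were not counted. Rrm2 was nearest to a call, at 0.43 ± 0.10 (SE, adjusted p = 0.0715). Its siRNA difference was 0.37 ± 0.07 with angiotensin II and -0.06 ± 0.07 without. Prim1 had an interaction of 0.30 ± 0.09 (SE, adjusted p = 0.128), Chaf1b of 0.35 ± 0.11 (SE, adjusted p = 0.177) and E2f8 of 0.33 ± 0.13 (SE, adjusted p = 0.258). Calls appeared when single libraries were left out. Without Ang-II replicate 3, Chaf1b (0.46), Pcna (0.27), Pole (0.41), Rrm2 (0.50) and Uhrf1 (0.46) were called, and without si-Foxm1 replicate 3, Prim1 (0.37) and Rrm2 (0.50) were. Without Ang-II replicate 2 there were 0. Rrm2 was also called by voom (0.46), with Pole (0.52), and in a fit of all 6 groups (0.43). The siRNA comparisons with and without angiotensin II use different libraries. Their log2 differences had r = 0.69 across the 31 genes.

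Foxm1 overexpression went with lower, not higher, levels of most S phase genes. In OE-Foxm1 against OE-NC, 26 of the 31 fell and 1 rose (limma, adjusted over 11259 genes), where 28.0% of all genes were called lower and 27.1% higher. E2f7, Chaf1b and Slbp fell most, and Rpa2, a single-strand binding subunit, was the one that rose. The median log2 difference was -0.30 over the 31 genes and 0.00 over all genes. The counts were the same, 26 and 1, under median-of-ratios scaling and quantile normalization. Without OE-Foxm1 replicate 3 there were 27 lower and 1 higher.

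E2f7 had 4.63, 4.38 and 4.91 FPKM in OE-Foxm1 libraries, against 7.94, 8.29 and 8.24 FPKM in OE-NC libraries. No OE-Foxm1 library came near the OE-NC range, and E2f7 fell by 0.70 ± 0.05 on the log2 scale (adjusted p = 1.90e-06). E2f8 differed by -0.43 ± 0.07 and E2f1 by -0.28 ± 0.07. E2f2, not tested in the main fit, had 0.862, 0.710 and 0.887 FPKM in OE-Foxm1 libraries, against 1.12, 1.10 and 0.939 FPKM in OE-NC libraries, with the OE-NC values higher. Chaf1b had 10.4, 9.71 and 10.8 FPKM in OE-Foxm1 libraries, against 16.5, 16.6 and 16.7 FPKM in OE-NC libraries. Slbp had 15.4, 17.5 and 17.1 FPKM in OE-Foxm1 libraries, against 27.5, 26.1 and 25.4 FPKM in OE-NC libraries. Neither pair overlapped, and the differences were -0.64 ± 0.04 (SE, adjusted p = 1.33e-06) for Chaf1b and -0.63 ± 0.05 (SE, adjusted p = 4.19e-06) for Slbp. Chaf1a fell by 0.48 ± 0.05. Uhrf1 did not pass, with 17.8, 18.1 and 21.6 FPKM in OE-Foxm1 libraries, against 19.8, 20.2 and 21.1 FPKM in OE-NC libraries, and OE-Foxm1 replicate 3 was above every OE-NC library. Its difference was -0.09 ± 0.06 (SE, adjusted p = 0.257), and without that library it was -0.18 and called.

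Rpa2 had 19.7, 22.3 and 21.8 FPKM in OE-Foxm1 libraries, against 15.4, 16.7 and 16.9 FPKM in OE-NC libraries. Every OE-Foxm1 value was above every OE-NC value, and Rpa2 rose by 0.36 ± 0.05 (SE, adjusted p = 1.97e-04). Its partner Rpa1 had 51.1, 52.3 and 55.0 FPKM in OE-Foxm1 libraries, against 65.3, 61.7 and 61.8 FPKM in OE-NC libraries, also without overlap but in the other direction, at -0.25 ± 0.04 (SE, adjusted p = 2.35e-04). All 5 nucleotide supply genes fell, Rrm1 most. Rrm1 had 60.1, 56.8 and 61.3 FPKM in OE-Foxm1 libraries, against 83.9, 80.3 and 81.9 FPKM in OE-NC libraries, and Rrm2 had 32.7, 29.8 and 33.4 FPKM in OE-Foxm1 libraries, against 39.2, 40.3 and 37.9 FPKM in OE-NC libraries. The values did not overlap and gave -0.46 ± 0.03 (SE, adjusted p = 2.86e-06) for Rrm1 and -0.28 ± 0.04 (SE, adjusted p = 3.74e-04) for Rrm2. Tk1, Dut and Tyms were at -0.32 ± 0.07, -0.31 ± 0.05 and -0.30 ± 0.05. Among the polymerases, Prim1 had 7.72, 6.88 and 8.23 FPKM in OE-Foxm1 libraries, against 10.7, 10.6 and 11.7 FPKM in OE-NC libraries, a difference of -0.48 ± 0.06 (SE, adjusted p = 1.02e-04), while Prim2 had 4.50, 4.73 and 4.39 FPKM in OE-Foxm1 libraries, against 4.49, 5.28 and 5.10 FPKM in OE-NC libraries, overlapping, at -0.10 ± 0.06 (SE, adjusted p = 0.171). Pola1 (-0.43 ± 0.06) and Pola2 (-0.31 ± 0.04) fell, as did Pole (-0.25 ± 0.05), Pole2 (-0.23 ± 0.07) and Pold1 (-0.22 ± 0.05).

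Gins1 had 3.38, 3.68 and 3.26 FPKM in OE-Foxm1 libraries, against 3.62, 3.68 and 3.61 FPKM in OE-NC libraries, with overlap, and did not pass at -0.06 ± 0.05 (SE, adjusted p = 0.336). Gins2 had 15.9, 15.1 and 17.4 FPKM in OE-Foxm1 libraries, against 21.0, 21.1 and 21.7 FPKM in OE-NC libraries, well apart, and fell, at -0.38 ± 0.05 (SE, adjusted p = 9.42e-05), and Cdc45 fell at -0.30 ± 0.08. Pcna had 94.6, 101 and 105 FPKM in OE-Foxm1 libraries, against 128, 117 and 125 FPKM in OE-NC libraries. Those groups were apart, at -0.30 ± 0.04 (SE, adjusted p = 2.26e-04). Rfc3 (-0.39 ± 0.06), Rfc5 (-0.23 ± 0.06) and Rfc4 (-0.18 ± 0.06) fell, and Rfc2, at -0.08 ± 0.05 (SE, adjusted p = 0.203), did not pass. Fen1 had 12.9, 13.2 and 14.1 FPKM in OE-Foxm1 libraries, against 18.9, 18.7 and 18.6 FPKM in OE-NC libraries, clearly lower, and both Fen1 and Lig1 differed by -0.46. Calls near the threshold moved when single libraries were left out. Pole2 was lost without OE-Foxm1 replicate 1 (-0.19) or 2 (-0.18) and without OE-NC replicate 2 (-0.21) or 3 (-0.22), Rfc4 without OE-Foxm1 replicate 2 (-0.14) or OE-NC replicate 2 (-0.13), and Prim2 was gained without OE-NC replicate 1 (-0.16). With no minimum level, Pole2 and Rfc4 were also lost, at -0.23 and -0.18. Of the 15 cardiomyocyte markers 9 rose and 2 fell, with sums of 8561 to 8919 FPKM in OE-Foxm1 libraries, against 7607 to 8096 FPKM in OE-NC libraries. Of the 13 fibroblast markers 10 rose and 1 fell, with sums of 6880 to 6959 FPKM in OE-Foxm1 libraries, against 6016 to 6244 FPKM in OE-NC libraries, and of 9 macrophage markers 6 rose and 2 fell. Their part in the result was not tested.

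**Figure D3:**
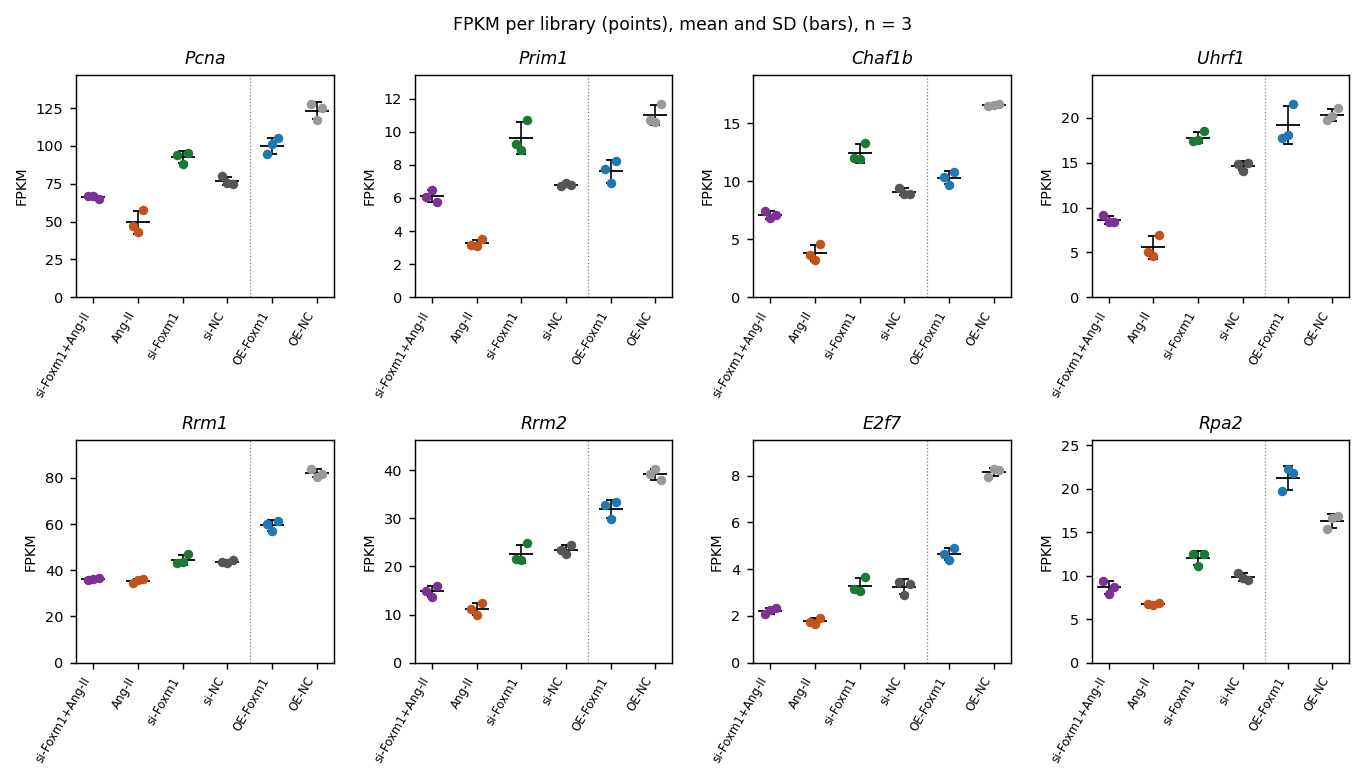
FPKM of 8 S phase genes in each library, by group, with the group mean and SD as bars. Uhrf1 is lowest in the Ang-II libraries (4.66 to 6.99 FPKM), Rrm1 does not separate si-Foxm1+Ang-II from Ang-II, and Rpa2 is highest in the OE-Foxm1 libraries (19.7 to 22.3 FPKM).

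Knockdown and overexpression, which share no libraries, were set side by side. Of the 31 genes, 22 were called higher with the siRNA alone and lower with overexpression, and Rpa2 was called higher in both. Of all genes, 48.5% were called higher with the siRNA alone and 28.0% lower with overexpression. The share of all genes called in both was not counted. Since 26 of the 31 were higher with the siRNA alone and 26 lower with overexpression, a large overlap follows from these counts alone. Across the 31 genes the log2 differences had r = -0.08. Those of overexpression and angiotensin II, also without shared libraries, had r = 0.21. E2f7 had the lowest value of all with overexpression (-0.70) and 0.01 with the siRNA. Rrm1, at -0.46 with overexpression, was 0.02 and 0.03 with the siRNA without and with angiotensin II.

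Ratios of FPKM between partner genes were chosen after the values were seen and are given without a test. Several differed between groups by more than the spread of their libraries. Rrm2 over Rrm1 was 0.414, 0.377 and 0.434 in si-Foxm1+Ang-II libraries, 0.324, 0.282 and 0.345 in Ang-II libraries, 0.502, 0.488 and 0.528 in si-Foxm1 libraries and 0.538, 0.524 and 0.551 in si-NC libraries. The ratio was lowest with angiotensin II and lay between in the combination, with no overlap between those 2 groups. It was 0.545, 0.524 and 0.545 in OE-Foxm1 libraries, against 0.468, 0.502 and 0.463 in OE-NC libraries, higher without overlap. Prim1 over Prim2 was 2.42, 2.32 and 2.06 in si-Foxm1+Ang-II libraries, 1.64, 1.44 and 1.33 in Ang-II libraries, 2.35, 2.26 and 2.36 in si-Foxm1 libraries and 1.91, 2.19 and 2.28 in si-NC libraries, and 1.72, 1.46 and 1.87 in OE-Foxm1 libraries, against 2.40, 2.01 and 2.30 in OE-NC libraries. The Ang-II libraries were under all others of the knockdown arm, and the OE-Foxm1 libraries under the OE-NC libraries. Rpa2 over Rpa1 was 0.386, 0.427 and 0.396 in OE-Foxm1 libraries, against 0.236, 0.271 and 0.273 in OE-NC libraries, and between 0.252 and 0.313 in the knockdown arm, so that the OE-Foxm1 libraries were above all 15 others. E2f7 over E2f1, a repressor over an activator, was 0.516, 0.560 and 0.507 in OE-Foxm1 libraries, against 0.685, 0.777 and 0.788 in OE-NC libraries, lower in every OE-Foxm1 library. In the knockdown arm this ratio was 0.307, 0.307 and 0.334 in Ang-II libraries, against 0.448, 0.369 and 0.432 in si-NC libraries. Those groups did not overlap either. The si-Foxm1 libraries, at 0.354, 0.376 and 0.441, overlapped the si-NC libraries.

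**Figure D4:**
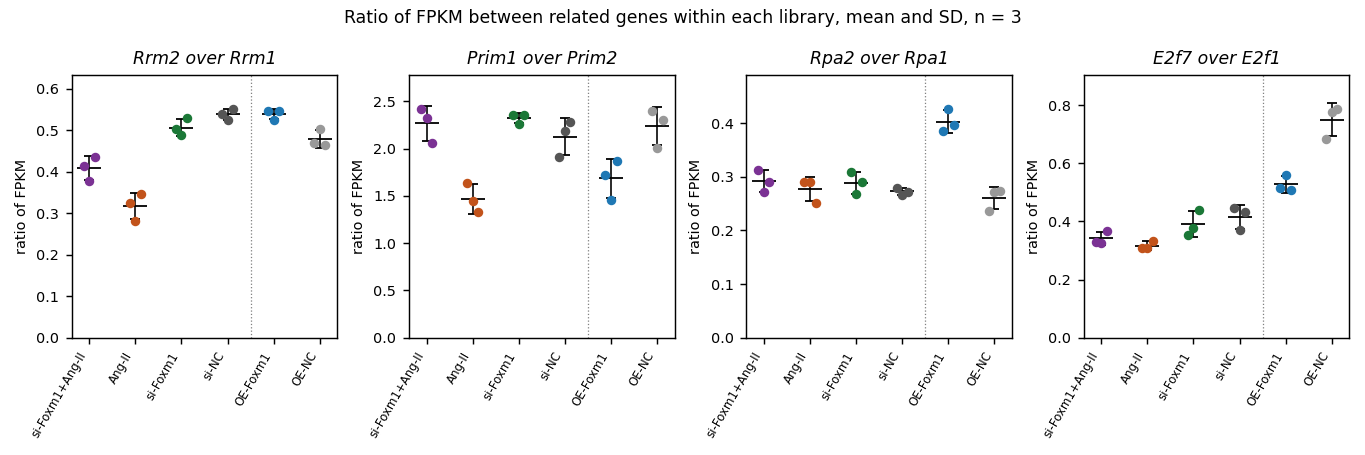
Ratios of FPKM between 4 pairs of S phase genes in each library, by group, with the group mean and SD as bars. Rrm2 over Rrm1 is lowest in the Ang-II libraries (0.282 to 0.345), and Rpa2 over Rpa1 is highest in the OE-Foxm1 libraries (0.386 to 0.427).

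Of 47 other replication genes, the MCM helicase, origin licensing, fork protection and further polymerase subunits among them, 38 rose and 3 fell in si-Foxm1 against si-NC (48.5% and 17.2% of all genes), 0 rose and 42 fell in Ang-II against si-NC (15.2% and 29.2%), 43 rose and 1 fell in si-Foxm1+Ang-II against Ang-II (44.0% and 17.4%), and 4 rose and 36 fell in OE-Foxm1 against OE-NC (27.1% and 28.0%). Under median-of-ratios scaling these were 28 and 3 (26.4% and 29.3% of all genes), 1 and 41 (22.2% and 21.7%), 37 and 3 (27.6% and 27.9%), and 4 and 36 (27.8% and 27.4%). Top2a, which untangles copied DNA, had the largest changes in the knockdown arm, at 0.51 ± 0.08 (SE, adjusted p = 1.23e-04), -1.23 ± 0.08 (SE, adjusted p = 8.68e-08) and 0.94 ± 0.08 (SE, adjusted p = 5.51e-07) in that order. Pole4, a small subunit of polymerase epsilon, went the other way with the siRNA, at -0.39 ± 0.05 (SE, adjusted p = 1.93e-05) without and -0.25 ± 0.05 (SE, adjusted p = 8.19e-04) with angiotensin II. The other genes lower in si-Foxm1, named after their values were seen, were Rrm2b, an alternative small subunit of ribonucleotide reductase, at -0.25 ± 0.04, and Samhd1, which degrades deoxynucleotides, at -0.23 ± 0.05. With overexpression, Ccne2, an S phase cyclin, fell most, at -1.31 ± 0.04 (SE, adjusted p = 4.22e-09), and Gmnn, the inhibitor of origin relicensing, rose most, at 0.74 ± 0.04 (SE, adjusted p = 4.16e-07). The other 3 that rose, named after their values were seen, were Rpa3 (0.27 ± 0.05), which is the third RPA subunit, Samhd1 (0.25 ± 0.05) and the helicase gene Gins4 (0.22 ± 0.04).

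Genes with and without a matched E2F site in the promoter were compared last, over the 26 tested genes with a promoter entry. In si-Foxm1 against si-NC, the median log2 difference was 0.32 for the 7 with a match and 0.32 for the 19 without. In Ang-II against si-NC the medians were -0.72 with a match and -0.64 without, in si-Foxm1+Ang-II against Ang-II 0.56 and 0.43, and in OE-Foxm1 against OE-NC -0.39 and -0.31. The ranges overlapped in all 4 comparisons. Among the genes whose windows are printed above, Uhrf1 had the largest fall with angiotensin II (-1.27) and no call with overexpression (-0.09), and E2f7 the largest fall with overexpression (-0.70).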

How the data were processed

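Reads were trimmed, aligned and counted with fastp, HISAT2 and HTSeq on mm39 (named in the submitters' processing notes), and the sources used here give no versions, settings, strandedness of counting or gene lengths. Per the labels' protocols, 4 μg of total RNA with an integrity number of at least 7 went into TruSeq stranded mRNA libraries. The deposited values are FPKM, per the file header, normalized by the authors to gene length and library total. Whole counts were recovered for all 17960 genes above 0 (within 0.02 of a whole number). They gave the depth, the fragment ranges and the mean chi-square between libraries, and were the basis of the simulated data. Of the tests of these data, only an alternative used them. Analysis used R 4.3.3 with limma 3.58.1 (eBayes with a mean-variance trend) and Python 3.11.15. Log2(FPKM + 1) was fitted in 12 knockdown libraries and separately in 6 overexpression libraries, without further scaling, for genes with a mean of at least 1 FPKM (11180 and 11259), with Benjamini-Hochberg adjustment and calls under 0.05. Differences are on this log2 scale, which understates changes of low genes. The fits were first tested on simulated data with known changes. The genes and lists were chosen with earlier results of these data known. All 32 genes were named, and of other lists the called genes with the highest and lowest change. The fits were repeated with a pseudocount of 0.1, with the minimum lowered to 0.1 FPKM or removed, quantile and median-of-ratios scaling, voom on recovered counts, other sets of groups in the fit, a replicate block, and each library left out. No column lacked a sample. Mouse carries processed pseudogenes of Pcna and Tyms, and how reads shared with such copies were counted is not stated, so values of those genes are less certain.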

Additional observations from a re-analysis of the deposited data

How the results depend on the processing

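Of the values of single genes under the alternatives, 2816 kept their direction and their side of the threshold, 43 lost and 16 gained a call, and 39 changed sign, with the causes not tested. Genes called in the interaction numbered 103, against 57 with no filter, 229 with voom and 169 with all 6 groups in 1 fit, and 37 to 196 with a library left out. S phase genes called higher in the interaction were 0, against 1 with the replicate block (Rrm2, at 0.43 with adjusted p = 0.00598), 2 with voom, 1 with all 6 groups in 1 fit and 0 to 5 with a library left out. With median-of-ratios scaling, 2 were called lower in si-Foxm1 against si-NC. With a library left out, between 24 and 27 were higher in si-Foxm1 against si-NC, 27 to 30 higher in si-Foxm1+Ang-II against Ang-II, and 24 to 27 lower in OE-Foxm1 against OE-NC. Changes of sign concerned genes without a call in the comparison. In si-Foxm1 against si-NC, E2f1 was -0.02 with median-of-ratios and with quantile scaling, E2f7 -0.09 with both, and Rrm1 -0.10 with median-of-ratios (called) and -0.04 with quantile scaling. In si-Foxm1+Ang-II against Ang-II, Rrm1 was -0.07 and -0.02. In si-Foxm1+Ang-II against si-Foxm1, Tyms was 0.01 and 0.03. In the interaction, Pola2 was 0.01 with a pseudocount of 0.1, 0.02 with median-of-ratios and 0.01 with quantile scaling, and 0.01 with voom. With a library left out, signs changed in si-Foxm1 against si-NC for E2f7 (-0.05 to 0.05) and Rrm1 (-0.01 to 0.05), in si-Foxm1+Ang-II against si-Foxm1 for Tyms (-0.11 to 0.02), and in the interaction for Pola2 (-0.08 to 0.07), Pold1 (-0.01 to 0.10), Prim2 (-0.16 to 0.00), Rfc2 (-0.04 to 0.05), Rfc4 (-0.12 to 0.02), Rrm1 (-0.02 to 0.05) and Tk1 (-0.11 to 0.13). Replicate numbers did not pair the libraries, since deviations of libraries with the same number had r between -0.04 and 0.18. The block changed no other count of S phase genes by more than 1.5 times. Restricting the fit to the compared groups gives no separate value for the interaction or for OE-Foxm1 against OE-NC. With the minimum lowered to 0.1 FPKM, E2f2 was tested too, and no call of the other 31 genes changed. S phase genes then numbered 32 lower in Ang-II against si-NC and 31 higher in si-Foxm1+Ang-II against Ang-II. They numbered 27 lower in OE-Foxm1 against OE-NC, and 24 with no minimum. In si-Foxm1 against si-NC 26 were higher at 0.1 FPKM, as before. For genes of low depth such as E2f2 (23 to 87 fragments) counting error limits the precision.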

Other observations

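Genes of mitosis, the later stage of the cycle that FOXM1 is known to drive, were likewise called mostly higher with the siRNA and lower with angiotensin II. Of 20, 14 rose and 1 fell in si-Foxm1 against si-NC (48.5% and 17.2% of all genes), 0 rose and 20 fell in Ang-II against si-NC (15.2% and 29.2%), and 18 rose and 0 fell in si-Foxm1+Ang-II against Ang-II (44.0% and 17.4%). Under median-of-ratios scaling these were 8 and 1 (26.4% and 29.3% of all genes), 0 and 20 (22.2% and 21.7%), and 18 and 0 (27.6% and 27.9%). With that scaling, most of the 20 were not called with the siRNA alone. Bub1b, a spindle checkpoint kinase, rose most with the siRNA, at 0.63 ± 0.07 (SE, adjusted p = 5.87e-06). Prc1, a spindle midzone protein, fell most with angiotensin II, at -1.39 ± 0.09 (SE, adjusted p = 6.40e-08), and rose most with the siRNA added, at 0.90 ± 0.09 (SE, adjusted p = 1.84e-06). In the interaction 2 were called, the mitotic kinase Aurka, at 0.40 ± 0.07 (SE, adjusted p = 0.0216), and the mitotic cyclin Ccnb1, at 0.44 ± 0.09 (SE, adjusted p = 0.0332), of which Aurka was named after its value was seen. With overexpression, 1 of the 20 rose and 8 fell (27.1% and 28.0%), with a median log2 difference of -0.05. Cenpf, a kinetochore protein, rose, at 0.24 ± 0.05 (SE, adjusted p = 0.00369), and Prc1 fell most, at -0.44 ± 0.05 (SE, adjusted p = 3.68e-05).

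Of 20 further genes of the E2F and RB pathway, 9 rose and 2 fell in si-Foxm1 against si-NC (48.5% and 17.2% of all genes), 2 rose and 11 fell in Ang-II against si-NC (15.2% and 29.2%), 11 rose and 2 fell in si-Foxm1+Ang-II against Ang-II (44.0% and 17.4%), and 4 rose and 11 fell in OE-Foxm1 against OE-NC (27.1% and 28.0%). With the siRNA alone the counts were near those shares, and the median log2 difference was 0.11 for the list and for all genes. Under median-of-ratios scaling the counts were 2 and 5 (26.4% and 29.3%), 2 and 8 (22.2% and 21.7%), 6 and 2 (27.6% and 27.9%), and 4 and 11 (27.8% and 27.4%). Ccnd1, the G1 cyclin D1, fell most with angiotensin II, at -1.26 ± 0.07 (SE, adjusted p = 1.68e-08), and the inhibitor Cdkn2b rose most, at 0.62 ± 0.07 (SE, adjusted p = 6.83e-06). With the siRNA, the inhibitor Cdkn1a fell, at -0.47 ± 0.06 (SE, adjusted p = 1.90e-05), and the repressor E2f6 rose, at 0.42 ± 0.04 (SE, adjusted p = 2.33e-06). With overexpression, Skp2 fell most, at -0.63 ± 0.08 (SE, adjusted p = 8.27e-05), and Ccnd2 rose most, at 0.34 ± 0.05 (SE, adjusted p = 2.42e-04).

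The controls of the arms differed. Means in OE-NC were above those in si-NC for all 32 S phase genes, with ratios between 1.27 and 2.51 and a median of 1.62, and OE-NC was the highest of all 6 groups for 30 of them. OE-Foxm1 means, lower than OE-NC for most genes, were above si-NC for all 32. The same was not counted over all genes, and FPKM was not scaled further between the arms. The arms were not compared by a test, and treatment and arm cannot be told apart between them. Counts of markers not yet described are given beside the shares of all genes. In si-Foxm1 against si-NC (48.5% higher and 17.2% lower of all genes), endothelial markers numbered 6 higher and 1 lower of 10, near those shares, smooth muscle and pericyte markers 0 and 5 of 7, fibroblast markers 2 and 6 of 13, and epicardial markers 0 and 5 of 6. Under median-of-ratios scaling (26.4% and 29.3%) they were 5 and 2, 0 and 6, 1 and 10, and 0 and 5. In Ang-II against si-NC (15.2% and 29.2%) they numbered 0 and 8, 4 and 2, 3 and 8, and 0 and 3. In si-Foxm1+Ang-II against Ang-II (44.0% and 17.4%) they were 6 and 2, 0 and 5, 2 and 5, and 0 and 3, and under median-of-ratios scaling (27.6% and 27.9%) 5 and 2, 0 and 6, 1 and 9, and 0 and 3. In OE-Foxm1 against OE-NC (27.1% and 28.0%) they were 3 and 0, 2 and 3, 10 and 1, and 3 and 2. Ptprc, the pan-leukocyte marker, and Kcnj8, a pericyte marker, were under 1 FPKM in every group.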
